A study of Mus musculus with 16 samples.

Results

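The axon guidance ligands and receptors described here were 60 genes of 38720 gene entries in the count table. They were taken by gene symbol alone, with no measured value in the rule, but were chosen with earlier results of these data known. They comprise 20 semaphorins, 9 plexins, 2 neuropilins, 3 Slits, 4 Robos, 8 ephrins and 14 Eph receptors. Of the 60, 53 passed the filter for low counts and were tested. The other 7 (Slit1, Robo3, Robo4, Efna3, Epha5, Epha6 and Epha10) reached between 2 and 17 counts in their highest library and a mean of at most 0.293 CPM in any group, where CPM are counts scaled to library size with TMM factors. Being near the floor of the assay, these 7 could not be compared at this depth.

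RNA was sequenced from adipose progenitors, the resident precursors of fat cells, of mice 4 weeks old. Progenitors came from subcutaneous (SAT) or visceral (VAT) fat of mice lacking Nr4a1 (KO, Nr4a1-/-, strain label B6;129S2-Nr4a1tm1Jmi/J) or of wild-type mice (WT, Nr4a1+/+, strain label C57BL/6J), with n = 4 libraries for KO SAT, WT SAT, KO VAT and WT VAT. The NR4A1 protein is a nuclear receptor with no known natural ligand, and its gene is induced early by many stimuli. No treatment is named for any group. The strain label changes with the genotype, so the lost receptor and the strain background cannot be told apart. The labels name no Cre or tissue-limited allele, and no source used here gives the sort markers, sex or litter. The replicates are called biological, but nothing says that each is a separate animal. The p-values therefore describe spread among these libraries, which may in part be technical.

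Axon guidance molecules steer growing nerve fibres and blood vessels by attraction or repulsion at the cell surface. Class 3 semaphorins are secreted ligands that bind neuropilins, which signal with plexins, whereas most other semaphorins are anchored in the membrane and bind plexins directly. Slits are secreted ligands of Robo receptors. Ephrins are tethered ligands of the Eph receptor tyrosine kinases, and signals run into both cells where they meet. Outside the nervous system the same families act in vessel sprouting, migration and the sorting of cells at tissue borders, and adipose tissue is reached by both nerves and vessels.

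As a check of the labels, Nr4a1 itself (chromosome 15, 101254269 to 101274795) had 202, 209, 195 and 199 CPM in KO SAT, against 1211, 1121, 1018 and 997 CPM in WT SAT. It had 297, 327, 303 and 307 CPM in KO VAT, against 1648, 1431, 1480 and 1580 CPM in WT VAT. The genotypes were far apart, at -2.43 ± 0.08 in SAT (log2 fold change ± SE, adjusted p = 5.34e-12) and -2.31 ± 0.08 in VAT (adjusted p = 5.53e-12), and reads remained in KO. Library totals lay between 44181663 and 55551845 counts for KO SAT, 34655519 and 49437944 for WT SAT, 35761196 and 43984232 for KO VAT, and 42383156 and 46293781 for WT VAT. All 9 progenitor markers, among them Pdgfra, Dcn, Cd34 and Ly6a, passed the filter. None of the 9 was called between genotypes, but 7 were lower and 1 higher in VAT in KO, and 6 were lower and 1 higher in WT. Means of Pdgfra were 519 CPM in KO VAT and 776 CPM in KO SAT, and 667 CPM in WT VAT and 809 CPM in WT SAT. Means of Pi16 were 380 CPM in KO VAT and 2494 CPM in KO SAT, and 499 CPM in WT VAT and 2656 CPM in WT SAT. The summed CPM of 12 mesothelial markers was 1008 to 1906 in KO VAT and 36.5 to 60.4 in KO SAT, and 1022 to 1933 in WT VAT and 57.9 to 75.8 in WT SAT, with Wt1, Upk3b and Msln each at a mean under 1 CPM in SAT. The sum of 9 Schwann and neural markers was 49.7 to 70.8 CPM in KO VAT and 390 to 523 CPM in KO SAT, and 60.4 to 78.1 CPM in WT VAT and 432 to 784 CPM in WT SAT. In bulk RNA, fewer cells of a type and less RNA per cell cannot be told apart, and the part that other cell types play in the differences below was not tested.

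The level of each gene was compared with that of other genes only as RPKM, CPM divided by the length of annotated exon in kilobases. Slit3, a secreted Robo ligand, had the highest mean over all libraries of the 60 genes (79.3 RPKM), with 67.8 RPKM in KO SAT, 75.5 RPKM in WT SAT, 73.4 RPKM in KO VAT and 101 RPKM in WT VAT. Sema3c, a secreted neuropilin ligand, followed with 101 ± 15.6 RPKM in KO SAT and 64.2 ± 6.89 RPKM in WT SAT (SD, n = 4), and with 23.4 ± 4.02 RPKM in KO VAT and 24.5 ± 0.797 RPKM in WT VAT. Sema3b, another secreted class 3 ligand, came next with a mean of 33 RPKM over all libraries. Its group means were 54.2 RPKM in KO SAT and 50.1 RPKM in WT SAT, but 13.2 RPKM in KO VAT and 14.6 RPKM in WT VAT.

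Receptors for these ligands were present at unequal levels. Nrp1, a co-receptor for class 3 semaphorins and for VEGF, had between 21.8 and 26.8 RPKM in the 4 groups, whereas its paralog Nrp2 had between 0.759 and 2.02 RPKM. Plxnb2, a plexin for class 4 semaphorins, had 21.4 to 28.5 RPKM, and Sema4c, its membrane-bound ligand, had 16 to 17.3 RPKM. Robo1 had 0.83 to 1.52 RPKM and Robo2 at most 0.131 RPKM, both far below the 67.8 RPKM or more of Slit3. Among ephrins Efnb1 led, with 11.7 to 21 RPKM, and among Eph receptors Ephb4, a receptor for Efnb2, led with 7.54 to 9.02 RPKM. RPKM used the union of annotated exons as length, which lowers the level of a gene that is read from a short form.

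**Figure D1:**
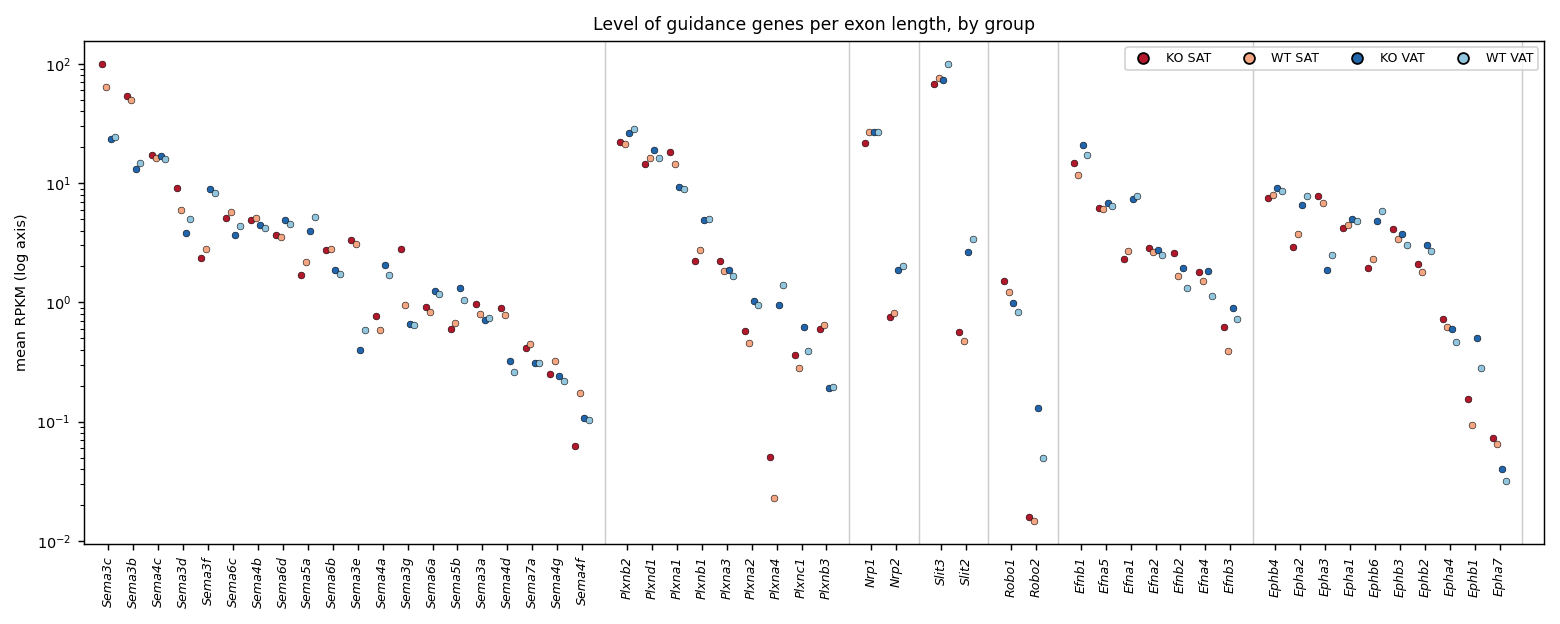
Mean RPKM (log axis) of the tested guidance genes in KO SAT, WT SAT, KO VAT and WT VAT, ordered by mean level within each family; each point is the mean of 4 libraries, and Epha8, at 0 in SAT, is not drawn. Slit3, Sema3c and Sema3b stand highest in SAT, whereas in VAT Nrp1 and Plxnb2 stand above Sema3c and Sema3b. Plxna4 shows the widest gap between VAT and SAT.

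The first comparison asked how loss of Nr4a1 was reflected in guidance genes of subcutaneous progenitors. In KO SAT, 3 secreted class 3 semaphorins rose (Sema3g, Sema3c and Sema3d) together with 2 transmembrane ephrins (Efnb2 and Efnb1). The co-receptor Nrp1 and the membrane semaphorin Sema4f fell. The other 46 tested genes, among them all 9 plexins, both Slits, both Robos and all 11 Eph receptors, were not called. A gene was called at an adjusted p under 0.05 in edgeR's quasi-likelihood test, with Benjamini-Hochberg adjustment over all 16842 genes tested. Differences between groups are log2 fold changes ± SE throughout. The 7 called were 13.2% of the 53 tested, against 5.89% of all genes (3.46% called higher and 2.43% lower). The median log2 fold change was 0.10 over the tested guidance genes and -0.01 over all genes.

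Sema3g (chromosome 14, 31217860 to 31230352, plus strand, GRCm38) encodes a secreted semaphorin that signals through Nrp2 and is known from endothelium. It had 15.8, 10.3, 11.8 and 12.8 CPM in the KO SAT libraries, against 3.79, 6.1, 3.87 and 3.65 CPM in the WT SAT libraries. Every KO SAT library lay above every WT SAT library, and the gene rose by 1.54 ± 0.23 on the log2 scale, 2.91-fold (adjusted p = 0.000593). Its receptor Nrp2 had means of 8.98 CPM in KO SAT and 9.62 CPM in WT SAT and was not called (-0.10 ± 0.17, adjusted p = 0.753). Endothelial markers had a summed level of 280 to 351 CPM in KO SAT and 251 to 293 CPM in WT SAT, most of it from Tek (means of 248 CPM in KO SAT and 205 CPM in WT SAT). The defining markers Pecam1, at 0.745 CPM in KO SAT and 0.775 CPM in WT SAT, and Cdh5, at 1.83 CPM in KO SAT and 2.19 CPM in WT SAT, were low in both genotypes. Of the 11 endothelial markers 1 was called, Kdr, with 17 ± 7.21 CPM in KO SAT and 8.81 ± 1.36 CPM in WT SAT (SD, n = 4; adjusted p = 0.0248), and its part in the rise of Sema3g was not tested.

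Sema3c (chromosome 5, 17574281 to 17730268, plus strand) had 575, 716, 733 and 848 CPM in KO SAT, against 521, 472, 412 and 428 CPM in WT SAT. The groups did not overlap, and the increase was 0.65 ± 0.12 on the log2 scale, 1.57-fold (adjusted p = 0.00404). Sema3d (chromosome 5, 12383385 to 12588948, plus strand), a secreted ligand known for patterning of nerves and vessels, had 65.5, 86.7, 79.4 and 82.4 CPM in KO SAT and 52.6, 57.2, 40.5 and 53.1 CPM in WT SAT. Its lowest KO SAT library lay above the highest WT SAT library (0.63 ± 0.18, adjusted p = 0.0446). Sema3a and Sema3e, which lie between these genes on chromosome 5, were not called, at 0.28 ± 0.13 and 0.10 ± 0.23.

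Efnb2 (chromosome 8, 8617434 to 8661242, minus strand) encodes ephrin-B2, a membrane-bound Eph ligand known for marking arterial endothelium. It had 15.8, 17.9, 16.9 and 20.6 CPM in KO SAT, against 11.9, 12.6, 9.18 and 11.6 CPM in WT SAT, again without overlap (0.65 ± 0.12, 1.57-fold, adjusted p = 0.00305). Efnb1 (chromosome X, 99136130 to 99148991, plus strand) encodes ephrin-B1, known for setting cell boundaries in the skeleton of the face. Its levels were 50, 47, 52.2 and 55.2 CPM in KO SAT and 44.8, 40.6, 35.2 and 40.6 CPM in WT SAT (0.34 ± 0.08, 1.27-fold, adjusted p = 0.0146). The groups were separate but close for Efnb1. Their receptors Ephb4 (-0.08 ± 0.07, adjusted p = 0.553) and Ephb2 (0.20 ± 0.12, adjusted p = 0.347) were not called. Ephb1, a further ephrin-B receptor, stood at 0.74 ± 0.28 with a wider error (adjusted p = 0.13).

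The sequences before the starts of Efnb2 and Sema3g are shown because these genes had the smallest adjusted p-values of those that rose in KO SAT. They are the 250 bases before the RefSeq start on GRCm38.p6, read 5′ to 3′ on the strand of the gene: Efnb2 at chr8:8661243-8661492 (minus strand) and Sema3g at chr14:31217623-31217872 (plus strand). Capitals mark GGGCGG or its reverse complement CCGCCC, the GC box.
Efnb2: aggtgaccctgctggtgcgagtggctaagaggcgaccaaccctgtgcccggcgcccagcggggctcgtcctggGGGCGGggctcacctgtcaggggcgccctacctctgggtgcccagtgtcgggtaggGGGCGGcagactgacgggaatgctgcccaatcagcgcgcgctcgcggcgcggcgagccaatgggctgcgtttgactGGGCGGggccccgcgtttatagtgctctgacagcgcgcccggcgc
Sema3g: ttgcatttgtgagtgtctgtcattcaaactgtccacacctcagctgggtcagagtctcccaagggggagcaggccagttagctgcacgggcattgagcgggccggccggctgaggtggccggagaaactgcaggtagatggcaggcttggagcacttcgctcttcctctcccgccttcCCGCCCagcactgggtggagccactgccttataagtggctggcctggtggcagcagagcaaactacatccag
Efnb2 held 3 GC boxes in this stretch and Sema3g 1. Neither held AAAGGTCA or its reverse complement TGACCTTT, the NBRE letters that NR4A receptors are known to bind as single proteins. RefSeq promoter windows (250 bases before to 50 after the start) were matched for 53 of the 60 genes, in 69 windows. These are not the same 53 genes as those tested for expression. The 7 without a window, which were not searched, were Efnb3, Plxna1, Plxna4, Sema3b, Sema3f, Sema6a and Slit1. The NBRE letters were in 0 of the 69 windows and in 1.51% of all 32851 windows. The GC box, searched after the NBRE result was seen, was in 49 of 69 (71%) and in 35.7% of all windows. The letters CG occurred a median of 18 times per window in the 69 and 7 times in all windows. The part of base composition in the GC box shares was not tested. A match is not a binding site, and only these letters in these windows were searched.

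Nrp1 (chromosome 8, 128358604 to 128503363, plus strand) had 215, 217, 223 and 198 CPM in KO SAT, against 235, 242, 289 and 276 CPM in WT SAT. The highest KO SAT library lay just below the lowest WT SAT library, and Nrp1 fell by 0.29 ± 0.08 (log2, adjusted p = 0.0468). Sema4f (chromosome 6, 82911885 to 82939769, minus strand), a membrane semaphorin known from neurons and glia, had 0.336, 0.13, 0.345 and 0.508 CPM in KO SAT and 1.05, 0.765, 0.667 and 1.23 CPM in WT SAT. These levels rest on 5 to 25 counts in KO SAT and 20 to 52 counts in WT SAT, and Sema4f fell by 1.48 ± 0.42 (adjusted p = 0.0471). Schwann and neural markers summed to a mean of 458 ± 74.3 CPM in KO SAT and 629 ± 175 CPM in WT SAT (SD, n = 4). Pericyte and smooth muscle markers ranged from 2288 to 3181 CPM in KO SAT and from 2871 to 4798 CPM in WT SAT. The part of either cell type in the decrease of Nrp1 or Sema4f was not tested.

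Sema3g, Efnb2 and Sema3c were called in each of 16 fits that left out 1 library. Efnb1 lost its call without KO SAT replicate 4 (adjusted p = 0.0645). Sema3d lost its call in 11 of these fits (0.0523 to 0.124), those without KO SAT replicate 2, 3 or 4, any WT SAT replicate, KO VAT replicate 1 or 2, or WT VAT replicate 1 or 3. Nrp1 lost its call in 11 (0.0528 to 0.149), those without any KO SAT replicate, WT SAT replicate 3 or 4, KO VAT replicate 1 or 2, or WT VAT replicate 1, 2 or 3. Sema4f lost its call in 13 (0.0532 to 0.128), those without any KO SAT replicate, WT SAT replicate 1, 2 or 4, KO VAT replicate 1 or 3, or any WT VAT replicate. The count of 7 fell to 3 without KO SAT replicate 4, and to 4 without KO SAT replicate 2 or 3, WT SAT replicate 4, KO VAT replicate 1, or WT VAT replicate 1 or 3. With the SAT libraries alone, 4 were called (Efnb2, Sema3c, Sema3d and Sema3g).

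**Figure D2:**
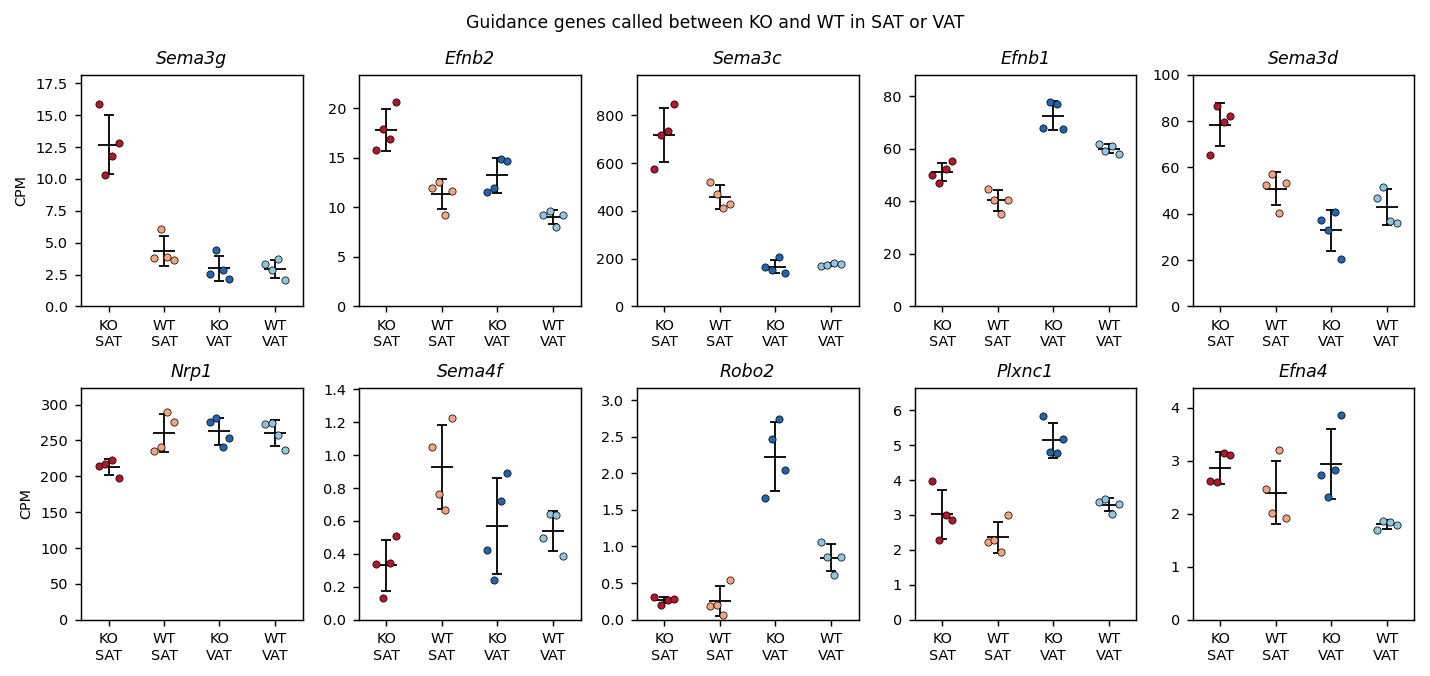
CPM of the 10 guidance genes called between KO and WT in SAT or VAT; points are libraries (n = 4 a group), horizontal marks are means and bars are SD, and each panel starts at 0. Sema3g, Sema3c and Sema3d are higher in KO SAT than in WT SAT and overlap between genotypes in VAT, whereas Efnb2 is higher in KO in both depots. The difference of the KO effect between depots was not called by edgeR for Sema3g (adjusted p = 0.0626), Sema3c (0.0785) or Sema3d (0.083).

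The same question in visceral fat gave 4 called genes, all higher in KO VAT: Efnb2, Efna4, Robo2 and Plxnc1, that is 2 ephrin ligands and 2 receptors. They were 7.55% of the 53 tested, against 4.1% of all genes (2.84% higher and 1.26% lower). In this fit no semaphorin, neuropilin, Slit or Eph receptor was called. The Eph receptor Ephb1 stood at 0.84 ± 0.25 without overlap (adjusted p = 0.0634). It was called by DESeq2, by limma-voom, when libraries were scaled by totals alone and with the VAT libraries alone. Slit3 was called by DESeq2 and when replicate number was added to the fit. Sema5a was called with the VAT libraries alone, and Epha8 by limma-voom. Over the guidance genes the median log2 fold change was 0.084, and over all genes it was -0.0043. Efnb2 was the only gene called in both depots in this fit, 1 of 7 called in SAT (14.3%) and 1 of 4 called in VAT (25%). That count depends on the threshold, as Efnb1, called in SAT, had an adjusted p of 0.053 in VAT. DESeq2, limma-voom and scaling by totals alone called Efnb1 in both depots. With the libraries of a single depot alone, it was called in VAT and not in SAT. Over all genes, the calls shared with the same sign were 26.9% of the SAT calls and 38.7% of the VAT calls.

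Efnb2 had 11.5, 12, 14.8 and 14.7 CPM in KO VAT, against 9.27, 9.65, 8.03 and 9.19 CPM in WT VAT. The groups were separate, and the increase was 0.55 ± 0.12, 1.47-fold (adjusted p = 0.012). Efna4 (chromosome 3, 89333390 to 89338028, minus strand), a lipid-anchored ephrin, had 2.74, 2.31, 2.83 and 3.87 CPM in KO VAT and 1.69, 1.87, 1.84 and 1.79 CPM in WT VAT (0.71 ± 0.18, adjusted p = 0.0388). All KO VAT libraries exceeded the WT VAT libraries, which lay close together. Of its exon bases 10.5% are shared with 4731419I09Rik on the opposite strand, and the library kit does not mark strand, so reads there cannot be assigned. Efnb1 was separate between the groups but not called, with 68, 77.6, 77 and 67.6 CPM in KO VAT and 61.7, 59.1, 61.1 and 58 CPM in WT VAT (0.27 ± 0.08, adjusted p = 0.053).

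Robo2 (chromosome 16, 73891839 to 74411825, minus strand), a Slit receptor, had 1.66, 2.46, 2.74 and 2.04 CPM in KO VAT, against 1.06, 0.851, 0.613 and 0.855 CPM in WT VAT. The groups did not overlap (1.40 ± 0.34, 2.63-fold, adjusted p = 0.0279), on 82 to 126 counts in KO VAT and 31 to 49 counts in WT VAT. Its ligand Slit3 had 489, 512, 409 and 370 CPM in KO VAT and 709, 674, 550 and 508 CPM in WT VAT. The highest KO VAT library lay slightly above the lowest WT VAT library, so the groups overlapped, and Slit3 was not called (-0.46 ± 0.14, adjusted p = 0.0917). Slit2 was not called either (-0.35 ± 0.18, adjusted p = 0.324), nor was Robo1 (0.26 ± 0.17, adjusted p = 0.481).

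Plxnc1 (chromosome 10, 94790866 to 94944835, minus strand), the receptor of Sema7a, had 5.84, 4.79, 4.77 and 5.18 CPM in KO VAT and 3.38, 3.44, 3.03 and 3.3 CPM in WT VAT. All KO VAT libraries were above all WT VAT libraries (0.65 ± 0.16, 1.56-fold, adjusted p = 0.0307), while Sema7a stood at 0.01 ± 0.35 (adjusted p = 0.996). Efnb2 was called in VAT in each fit that left out 1 library. Robo2 lost its call in 7 of the 16 fits (adjusted p from 0.0529 to 0.0905), those without KO VAT replicate 2, 3 or 4 or any WT VAT replicate. Plxnc1 lost its call in 7 (0.052 to 0.0905), those without KO VAT replicate 1, 2 or 4 or any WT VAT replicate. Efna4 lost its call in 9 (0.0504 to 0.143), those without KO SAT replicate 4, WT SAT replicate 1, KO VAT replicate 1, 3 or 4, or any WT VAT replicate. The count of 4 fell to 1 without KO VAT replicate 4 or any one of the WT VAT replicates, fell to 2 without KO VAT replicate 2 or 3, and rose to 8 without WT SAT replicate 3, the shallowest library.

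**Figure D3:**
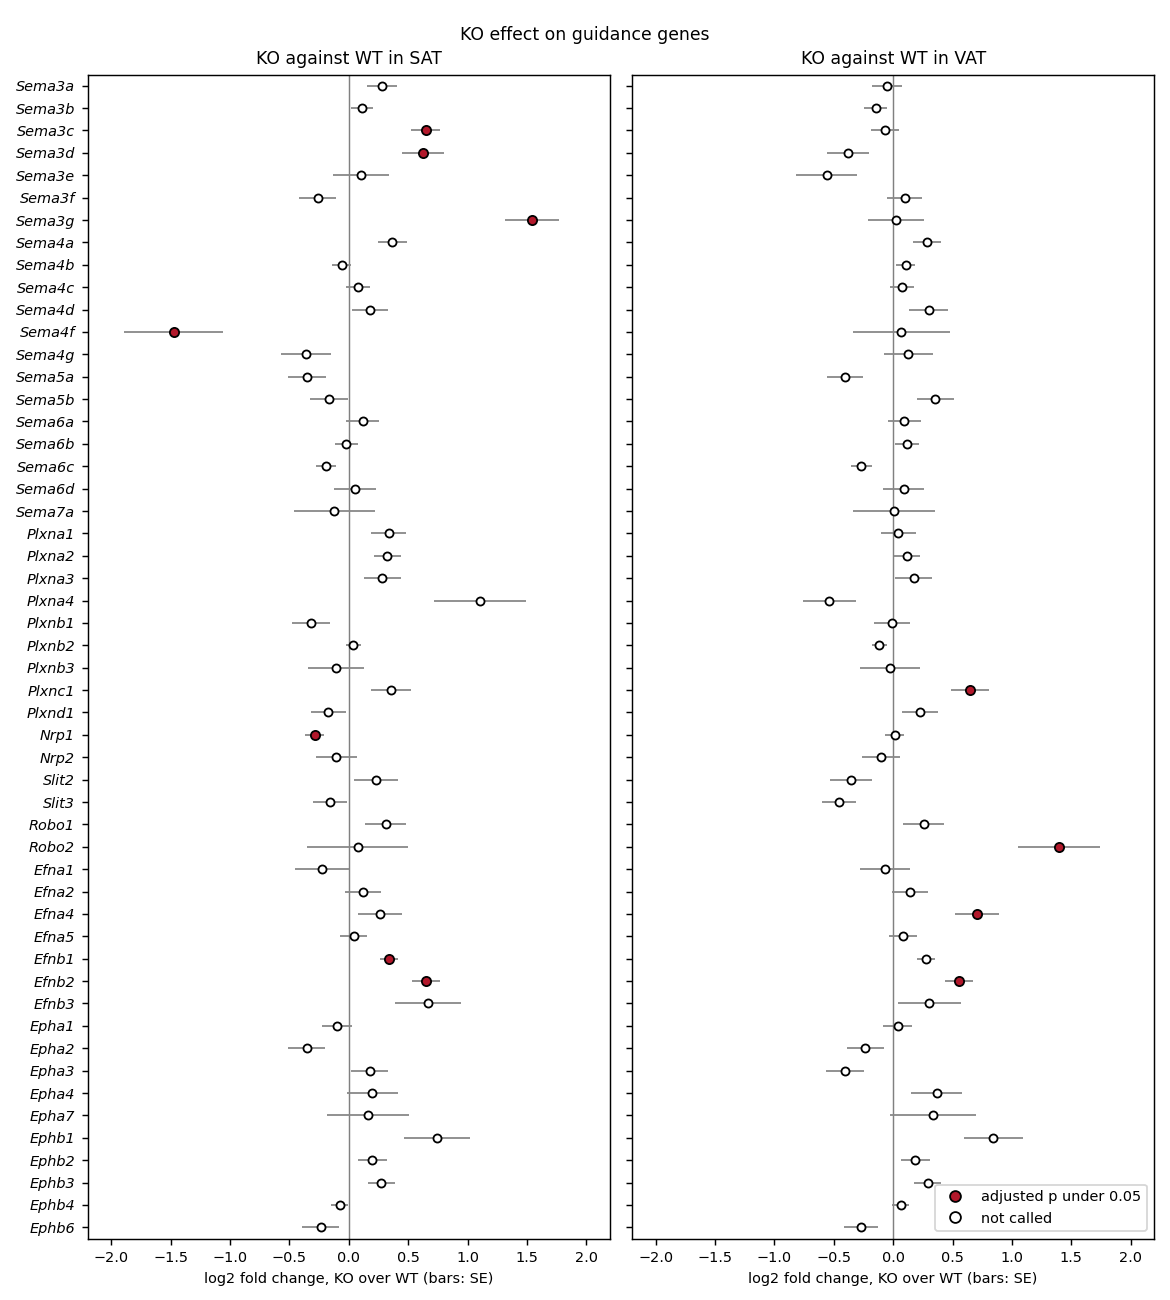
Log2 fold change, KO over WT, of 52 guidance genes in SAT and in VAT; bars are SE, filled points have an adjusted p under 0.05, and Epha8, at 0 in SAT, is not drawn. Sema3g, at 1.54 in SAT and 0.02 in VAT, and Robo2, at 0.07 and 1.40, spread widest among the called genes higher in KO. Sema4f, called lower in KO SAT, stands at -1.48 in SAT and 0.07 in VAT. The difference of the KO effect between depots was not called by edgeR for Sema3g (adjusted p = 0.0626), Robo2 (0.26) or Sema4f (0.22). Robo2 in SAT rests on 8 to 14 counts in KO and 2 to 23 counts in WT.

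Whether the KO effect differed between depots was tested as an interaction, the KO effect in VAT minus that in SAT. No guidance gene was called by edgeR, against 0.267% of all genes. At an unadjusted p under 0.05 there were 10, against 16% of all genes. DESeq2 called 4 (Plxna4, Sema3c, Sema3d and Sema3g), against 3.39% of all genes, and limma-voom called 0, against 0.226%. The 3 smallest p-values belonged to the class 3 semaphorins that rose in KO SAT. The difference was -1.52 ± 0.33 for Sema3g (adjusted p = 0.0626), -0.72 ± 0.17 for Sema3c (adjusted p = 0.0785) and -1.01 ± 0.25 for Sema3d (adjusted p = 0.083).

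None of these genes was called in VAT (adjusted p = 0.979 for Sema3g, 0.839 for Sema3c and 0.276 for Sema3d). Sema3g had 2.56, 4.42, 2.88 and 2.16 CPM in KO VAT and 3.29, 2.82, 3.68 and 2.04 CPM in WT VAT, with overlapping groups. Sema3c had 165, 153, 207 and 142 CPM in KO VAT and 168, 173, 182 and 177 CPM in WT VAT, and Sema3d had 37.3, 33, 40.7 and 20.5 CPM in KO VAT and 47, 51.7, 36.7 and 35.9 CPM in WT VAT, both overlapping. By edgeR, Sema3g was called in the interaction without WT SAT replicate 2 or KO VAT replicate 2 (adjusted p from 0.0234 to 0.0366). Sema3c (0.0231) and Sema3d (0.0467) were called without KO VAT replicate 3. With all libraries, a difference of the KO effect between depots was not shown by edgeR.

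The second question was how guidance genes differed between visceral and subcutaneous progenitors, asked in each genotype. The comparisons in KO and WT used separate libraries but a shared estimate of the spread, so their calls were not fully independent. Beside all these results, 12 of 12 mesothelial markers and 8 of 10 pericyte and smooth muscle markers were higher in VAT, and 8 of 9 Schwann and neural markers lower, in both genotypes, as were 7 of 9 progenitor markers in KO and 6 of 9 in WT. Of 8 tested macrophage and myeloid markers, 3 were higher in VAT in KO and 5 in WT, and none lower. Of 6 tested lymphocyte markers, 2 were higher in KO and 1 in WT, and none lower. Of 11 endothelial markers, 5 were higher and 2 lower in KO, and 4 were higher and 2 lower in WT. In KO, 37 of 53 were called (69.8%), 23 higher in VAT and 14 lower, against 43.3% of all genes (23.3% higher and 20% lower). In WT, 36 of 53 were called (67.9%), 22 higher and 14 lower, against 36.7% of all genes (19.1% higher and 17.6% lower). The share called among guidance genes was thus above that over all genes in both genotypes, without a test of that difference. As the genes were chosen with earlier results of these data known, these shares are description only. With only the compared groups in the fit, 41 were called in KO (25 higher and 16 lower) and 30 in WT (19 higher and 11 lower). The matching shares over all genes were not taken. Scaling by library totals alone moved the median log2 fold change of all genes from 0.017 to 0.36 in KO and from -0.0044 to 0.29 in WT. The split of the guidance genes became 30 higher and 9 lower in KO and 28 higher and 8 lower in WT. The median absolute log2 fold change of the guidance genes was 0.764 in KO and 0.572 in WT.

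In both genotypes 31 genes were called with the same sign, 20 higher and 11 lower in VAT. They were 83.8% of the KO calls and 86.1% of the WT calls, and none was called in opposite directions. Over all genes, the calls shared with the same sign were 65.2% of the KO calls and 76.9% of the WT calls. The genes named below by size kept their calls in both genotypes in each fit that left out 1 library.

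**Figure D4:**
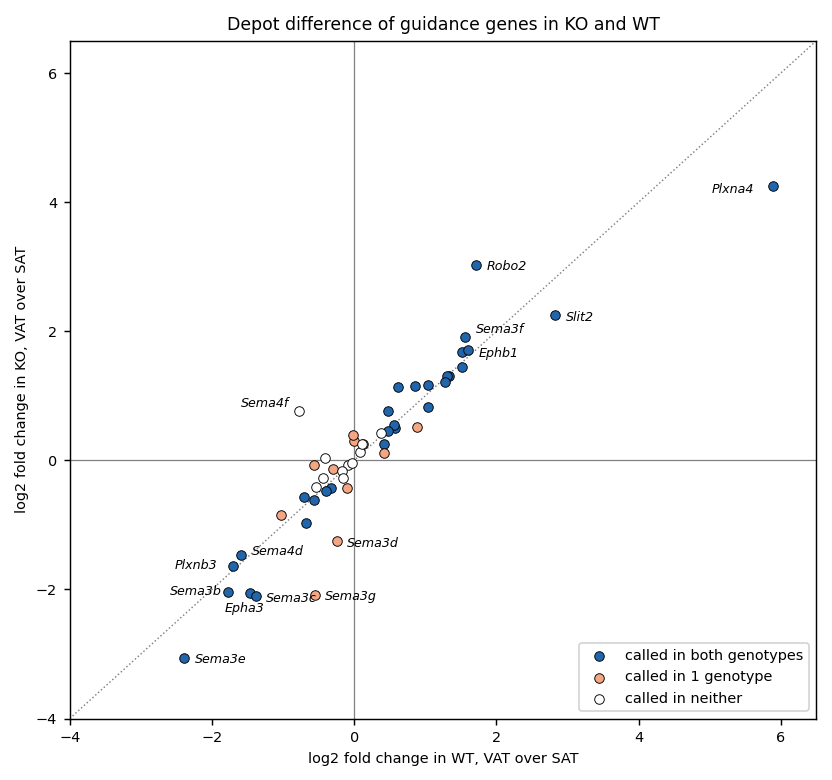
Log2 fold change, VAT over SAT, of 52 guidance genes in KO (vertical axis) and WT (horizontal axis); the dotted line marks equal values, colours show in how many genotypes a gene was called, and Epha8, at 0 in SAT, is not drawn. Plxna4 lies farthest up, Sema3e farthest down, and Sema3g and Sema3d lie below the line.

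Among semaphorins, 6 of 7 tested class 3 members were lower in VAT in KO and 3 of 7 in WT (5 and 3 when libraries were scaled by totals alone), and Sema3f was higher in both. In KO, 5 of 20 semaphorins were higher and 9 lower, and in WT 5 were higher and 8 lower. When libraries were scaled by totals alone, the balance turned to 8 higher and 6 lower in KO and 7 higher and 5 lower in WT. The WT call of Sema4g was lost by that scaling (adjusted p = 0.306) and in 10 of the 16 fits that left out 1 library (0.05004 to 0.12). Sema3e (chromosome 5, 14025276 to 14256689), a ligand of Plxnd1 that is known in mouse adipose inflammation, had 4.32, 4.07, 4.73 and 1.57 CPM in KO VAT, against 31.4, 38.9, 29.6 and 23.1 CPM in KO SAT. In WT it had 6.57, 6.72, 4.04 and 4.45 CPM in VAT and 32.5, 31.2, 25.6 and 25 CPM in SAT. No VAT library came near a SAT library, at -3.06 ± 0.26 in KO (adjusted p = 5.73e-08) and -2.40 ± 0.25 in WT (adjusted p = 8.37e-07).

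Sema3b had 66.1, 59.5, 66.5 and 60.4 CPM in KO VAT and 222, 284, 245 and 284 CPM in KO SAT (-2.04 ± 0.10, adjusted p = 8.47e-11). The WT libraries had 74.7, 73, 66.4 and 65.5 CPM in VAT and 252, 206, 271 and 228 CPM in SAT (-1.78 ± 0.10, adjusted p = 3.66e-10). For Sema3c, with the library values given above, the depot difference was -2.10 ± 0.13 in KO (adjusted p = 9.1e-10) and -1.39 ± 0.12 in WT (adjusted p = 1.18e-07). Sema3d and Sema3g were called lower in VAT in KO (-1.25 ± 0.18, adjusted p = 1.91e-05, and -2.08 ± 0.23, adjusted p = 1.54e-06) and not in WT (-0.25 ± 0.18, adjusted p = 0.291, and -0.56 ± 0.23, adjusted p = 0.0736). Sema3d in WT turned to 0.05 when libraries were scaled by totals alone and was not called. The test of that difference between genotypes is the interaction given above, which edgeR did not call.

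Sema3f, a class 3 ligand with affinity for Nrp2, ran the other way. It had 42.4, 40.8, 53.3 and 48.4 CPM in KO VAT and 13.2, 12.5, 13.3 and 10 CPM in KO SAT, and 46.4, 34.5, 50.7 and 41.3 CPM in WT VAT and 16.1, 18.8, 11.9 and 11.8 CPM in WT SAT. The depots were separate in both genotypes, with 1.92 ± 0.16 in KO (adjusted p = 3.44e-08) and 1.56 ± 0.15 in WT (adjusted p = 4.49e-07). Sema3f and Sema3b are neighbours on chromosome 9, with 72.3 kb between them, and their depot differences had opposite signs. Nrp2 moved with Sema3f: it had 19.8, 22.8, 24.4 and 22.3 CPM in KO VAT and 9.14, 8.31, 9.99 and 8.49 CPM in KO SAT (1.31 ± 0.17, adjusted p = 6.73e-06). In WT Nrp2 had 25.2, 24.7, 21.7 and 24.2 CPM in VAT and 8.95, 13.2, 5.61 and 10.7 CPM in SAT (1.31 ± 0.17, adjusted p = 8.45e-06).

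Of the membrane semaphorins, Sema4a, known from immune cells, had 10.4, 9.91, 12.2 and 12.4 CPM in KO VAT and 4.73, 3.96, 3.77 and 4.06 CPM in KO SAT, and 8.86, 9.11, 9.48 and 9.35 CPM in WT VAT and 3.95, 2.88, 2.74 and 3.18 CPM in WT SAT. It was higher in VAT without overlap, by 1.44 ± 0.12 in KO (adjusted p = 4.62e-08) and 1.52 ± 0.12 in WT (adjusted p = 3.63e-08). Sema5a (1.22 ± 0.16 in KO and 1.27 ± 0.16 in WT), Sema5b and Sema6a were also called higher in VAT in both genotypes, Sema6a in KO not without KO VAT replicate 3 (adjusted p = 0.0536). Sema4d, a ligand of Plxnb1, had 3.02, 2.42, 2.05 and 2.39 CPM in KO VAT and 6.36, 7.74, 6.48 and 6.84 CPM in KO SAT, and 2.36, 2.24, 1.6 and 1.85 CPM in WT VAT and 7.42, 5.94, 5.21 and 5.63 CPM in WT SAT. It was lower in VAT, by -1.47 ± 0.16 in KO (adjusted p = 7.78e-07) and -1.59 ± 0.16 in WT (adjusted p = 4.53e-07).

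Sema6b, a transmembrane semaphorin that binds A-type plexins, differed less. It had 7.81, 7.72, 7.19 and 6.89 CPM in KO VAT and 11.6, 10.4, 10.6 and 11.5 CPM in KO SAT (-0.57 ± 0.10, adjusted p = 0.000144). In WT it had 5.94, 6.76, 6.63 and 8.01 CPM in VAT and 10.9, 11.1, 10.2 and 12.3 CPM in SAT (-0.71 ± 0.10, adjusted p = 2.1e-05). The KO call was lost when libraries were scaled by totals alone (adjusted p = 0.0653). Sema4c was not called, at -0.04 ± 0.10 in KO and -0.03 ± 0.10 in WT. Its libraries had 79.3, 89.1, 73.5 and 68.4 CPM in KO VAT, 76.1, 74, 82.4 and 85.7 CPM in KO SAT, 80.1, 72.5, 66.4 and 75.7 CPM in WT VAT and 80.5, 81.4, 61.3 and 78.2 CPM in WT SAT, with overlapping depots. Scaled by totals alone, Sema4c turned to higher in VAT and was called, at 0.31 in KO (adjusted p = 0.0132) and 0.26 in WT (adjusted p = 0.033).

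Among plexins, 6 of 9 were higher and 2 lower in VAT in KO, and 5 were higher and 2 lower in WT. The KO call of Plxnd1 was lost in 11 of the 16 fits that left out 1 library (0.051 to 0.157). The WT call of Plxnc1 was lost in 6 of them (0.0593 to 0.0833). Plxna4 (chromosome 6, 32144268 to 32588192, minus strand), a neuropilin partner in the class 3 semaphorin receptor, showed the largest depot difference of the tested guidance genes apart from Epha8, which had no counts in SAT. It had 15.6, 10.5, 18.7 and 9.09 CPM in KO VAT and 0.312, 0.855, 0.988 and 0.67 CPM in KO SAT (4.25 ± 0.28, adjusted p = 3.34e-09). The WT libraries had 22.1, 17.7, 17.5 and 21 CPM in VAT and 0.365, 0.459, 0.2 and 0.259 CPM in SAT (5.89 ± 0.32, adjusted p = 3.52e-10). The SAT values rest on 13 to 43 counts in KO and 6 to 18 counts in WT. Its interaction was -1.64 ± 0.45 (adjusted p = 0.105 by edgeR).

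Plxna1 and Plxnb3 were lower in VAT. Plxna1, also a neuropilin partner, had 85.4, 99, 86.5 and 65.3 CPM in KO VAT and 142, 166, 172 and 178 CPM in KO SAT (-0.97 ± 0.15, adjusted p = 5.17e-05). In WT it had 88, 94.1, 69.5 and 74.6 CPM in VAT and 150, 149, 91.3 and 133 CPM in SAT, where the groups overlapped through 1 SAT library (-0.68 ± 0.15, adjusted p = 0.00173). Of the exon bases of Plxna1 10.7% lie opposite Gm26811. Plxnb3 had 1.68, 1.21, 0.806 and 1.31 CPM in KO VAT and 4.66, 3.7, 3.35 and 3.84 CPM in KO SAT (-1.63 ± 0.25, adjusted p = 4.2e-05), and 1.26, 1.6, 1.15 and 1.11 CPM in WT VAT and 3.45, 5.41, 2.57 and 5.26 CPM in WT SAT (-1.71 ± 0.25, adjusted p = 3.17e-05).

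The most abundant plexin, Plxnb2, was modestly higher in VAT, with 196, 200, 211 and 205 CPM in KO VAT and 159, 173, 180 and 166 CPM in KO SAT (0.26 ± 0.06, adjusted p = 0.00312). The WT libraries had 236, 223, 212 and 210 CPM in VAT and 172, 167, 152 and 170 CPM in SAT (0.42 ± 0.06, adjusted p = 5.51e-05). The depots were separate in both genotypes. Nrp1 was higher in VAT in KO (0.30 ± 0.08, adjusted p = 0.00634), with 275, 281, 241 and 253 CPM in KO VAT beside the KO SAT values above. In WT, where VAT libraries had 273, 275, 258 and 236 CPM, it was at 0.00 ± 0.08 (adjusted p = 0.999), but at 0.30 and called when libraries were scaled by totals alone (adjusted p = 0.00305). Its interaction was 0.30 ± 0.12 (adjusted p = 0.229), so a difference between the genotypes was not shown.

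Slit2 (chromosome 5, 47983138 to 48307733, plus strand), a secreted Robo ligand, had 80.9, 66.2, 60.5 and 63 CPM in KO VAT and 11.4, 16.6, 15.6 and 13.5 CPM in KO SAT. In WT it had 101, 105, 72 and 67.5 CPM in VAT and 12.7, 11.5, 8.18 and 16.1 CPM in SAT. Every VAT library was several times above every SAT library, at 2.25 ± 0.19 in KO (4.75-fold, adjusted p = 4.95e-08) and 2.83 ± 0.19 in WT (7.1-fold, adjusted p = 4.91e-09). Slit3 was called in WT alone, at 0.11 ± 0.14 in KO (adjusted p = 0.556) and 0.41 ± 0.14 in WT (adjusted p = 0.0323), with an interaction that was not called (-0.30 ± 0.20, adjusted p = 0.466). It had 426, 431, 419 and 370 CPM in KO SAT and 530, 482, 328 and 494 CPM in WT SAT beside the VAT values above, and in WT it was not called when WT SAT replicate 2 or 3, or WT VAT replicate 1 or 2, was left out (0.0523 to 0.113). Scaled by totals alone, Slit3 was called in both genotypes, at 0.46 in KO (adjusted p = 0.0103) and 0.71 in WT (adjusted p = 0.000517). The receptors parted: Robo2 was higher in VAT (3.03 ± 0.38 in KO, adjusted p = 5.66e-06, and 1.71 ± 0.39 in WT, adjusted p = 0.00227). Robo1 was lower (-0.61 ± 0.17 in KO, adjusted p = 0.00768, and -0.56 ± 0.17 in WT, adjusted p = 0.0166), and both of these calls were lost when libraries were scaled by totals alone (0.184 in KO and 0.211 in WT). The WT call of Robo1 was also lost without WT SAT replicate 4 or WT VAT replicate 3 (0.0518 to 0.0544).

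Of 7 tested ephrins, 2 were higher and 1 lower in VAT in KO, and 3 were higher and 1 lower in WT (4 higher and 0 lower in either genotype when scaled by totals alone). Efnb3, called higher in WT alone, lost that call without WT SAT replicate 1 or WT VAT replicate 3 (0.0567 to 0.0624). Efna1, a lipid-anchored ephrin, had 10.2, 9.91, 17.9 and 15.9 CPM in KO VAT and 3.58, 5.36, 4.02 and 3.96 CPM in KO SAT (1.67 ± 0.22, adjusted p = 1e-05). The WT libraries had 12.4, 10.5, 16.9 and 16.8 CPM in VAT and 3.88, 4.18, 6.04 and 5.71 CPM in SAT (1.52 ± 0.22, adjusted p = 3.34e-05). Efna1, Efna3 and Efna4 lie in a row on chromosome 3, with gaps of 32.8 kb and 10.4 kb, and Efna4 was not called by depot. Efnb1 was higher in VAT (0.51 ± 0.08 in KO and 0.57 ± 0.08 in WT) and Efnb2 lower (-0.43 ± 0.12 in KO, adjusted p = 0.00669, and -0.33 ± 0.12 in WT, adjusted p = 0.0387). Scaled by totals alone, Efnb2 was not called in either genotype (adjusted p = 0.618 in KO and 0.852 in WT). The WT call of Efnb2 was also lost without WT SAT replicate 1, 2 or 4 or WT VAT replicate 1, 3 or 4 (0.0633 to 0.116).

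Of 11 tested Eph receptors, 6 were higher and 1 lower in VAT in KO, and 5 were higher and 2 lower in WT (7 higher and 1 lower in either genotype when scaled by totals alone). Epha2, a main receptor of Efna1, was called higher in VAT along with it (1.17 ± 0.16 in KO, adjusted p = 1.09e-05, and 1.04 ± 0.16 in WT, adjusted p = 4.14e-05). Ephb1 had 4.1, 2.57, 4.55 and 2.95 CPM in KO VAT and 1.06, 1.53, 0.689 and 1.08 CPM in KO SAT (1.71 ± 0.26, adjusted p = 3.7e-05). In WT it had 1.76, 2.01, 2.26 and 1.87 CPM in VAT and 0.457, 0.51, 0.901 and 0.754 CPM in SAT (1.60 ± 0.27, adjusted p = 0.00016). Ephb6, an Eph family member whose kinase domain is inactive, had 15.5, 15.7, 20.2 and 21.2 CPM in KO VAT and 7.73, 5.96, 8.25 and 7.45 CPM in KO SAT, and 22.9, 17.3, 22.5 and 25 CPM in WT VAT and 9.31, 10.3, 6.81 and 8.23 CPM in WT SAT. Its depot groups were separate, at 1.30 ± 0.15 in KO (adjusted p = 2e-06) and 1.34 ± 0.15 in WT (adjusted p = 1.75e-06).

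Epha3, a receptor for A-type ephrins, was the Eph receptor called lower in VAT in both genotypes, and Epha7 was called lower in WT. The WT call of Epha7 was not made when libraries were scaled by totals alone (adjusted p = 0.0998) or when WT SAT replicate 4 or WT VAT replicate 3 or 4 was left out (0.0801 to 0.2). Epha3 had 22.2, 15, 14.6 and 13.2 CPM in KO VAT and 62.4, 72.4, 66.2 and 68.1 CPM in KO SAT (-2.05 ± 0.16, adjusted p = 2.67e-08). The WT libraries had 27.8, 23.1, 15.7 and 19.4 CPM in VAT and 52.6, 65.8, 60.9 and 59.1 CPM in SAT (-1.47 ± 0.16, adjusted p = 1.36e-06). The SAT libraries of both genotypes were all above the VAT libraries. Epha8, an Eph receptor known from the developing midbrain, had 0 counts in all SAT libraries, and 23, 31, 20 and 17 counts in KO VAT and 3, 7, 17 and 0 counts in WT VAT. Set against 3 counts over the SAT group, it was at least 28.6-fold higher in KO VAT than in KO SAT and at least 7.12-fold higher in WT VAT than in WT SAT.

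**Figure D5:**
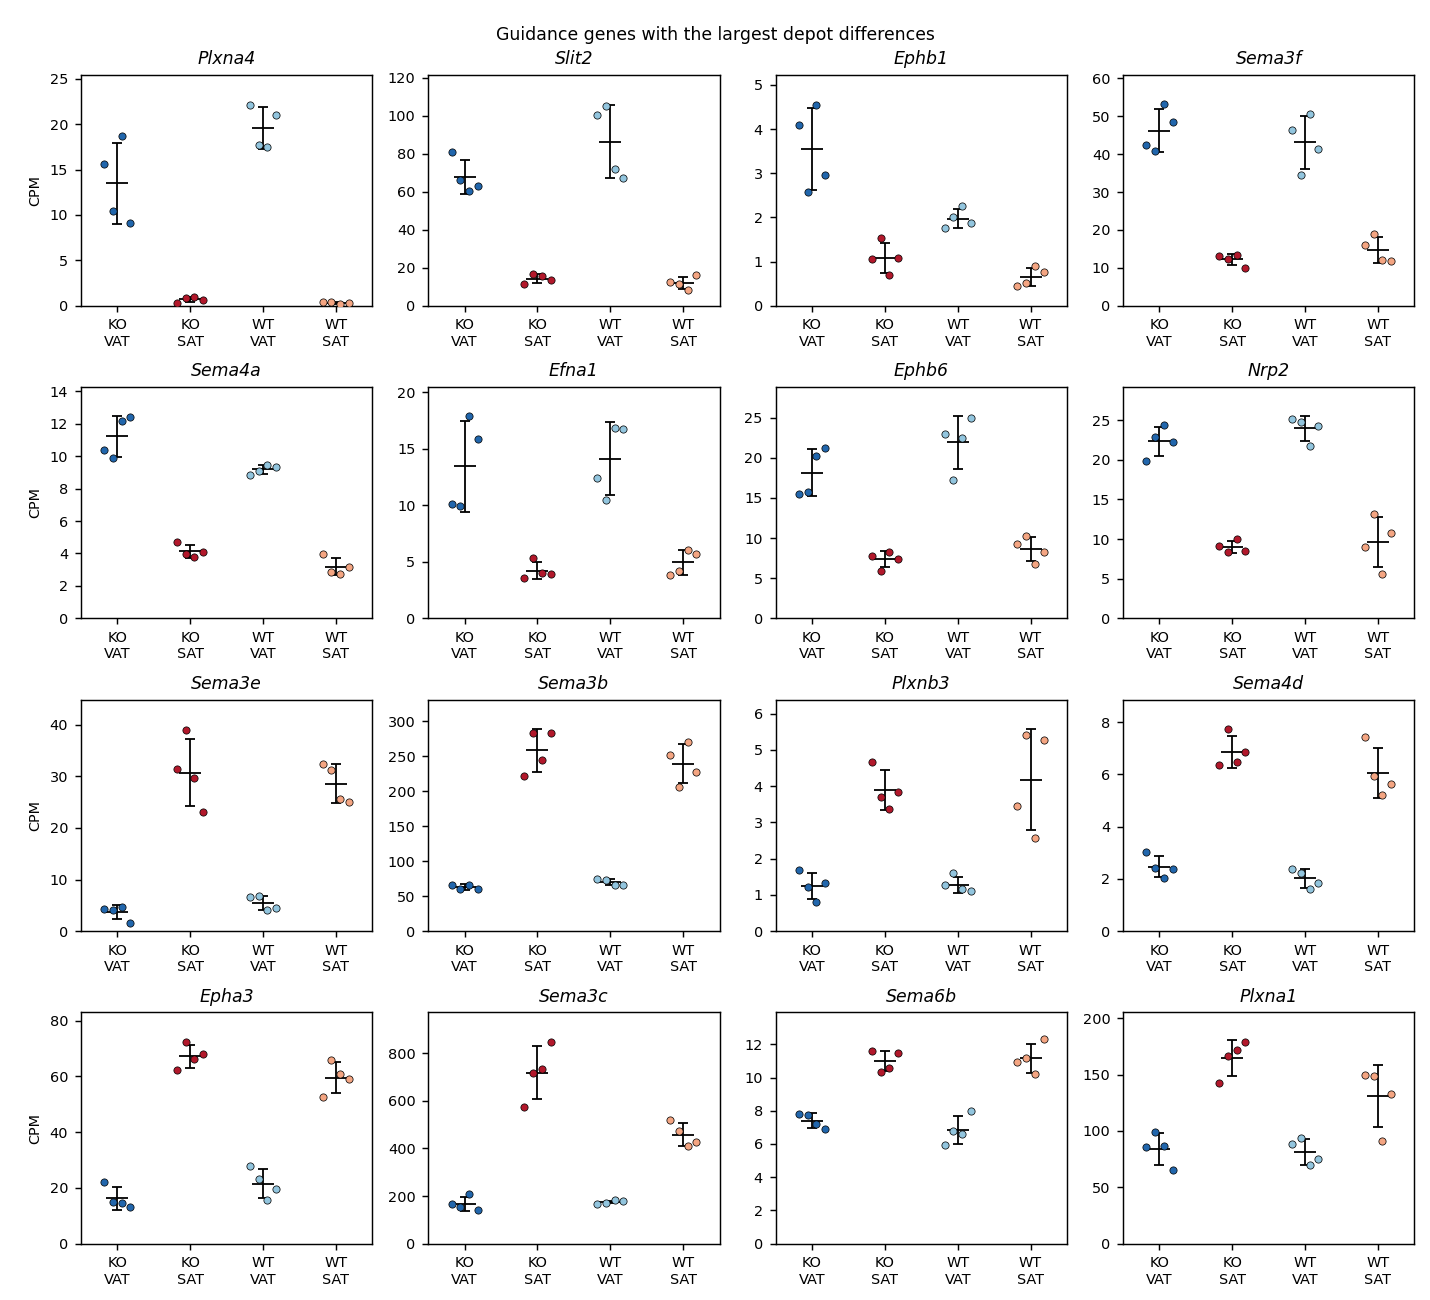
CPM of the 8 guidance genes with the largest increases and the 8 with the largest decreases in VAT in WT, among called genes whose mean reached 1 CPM, with KO VAT, KO SAT, WT VAT and WT SAT from left to right; points are libraries (n = 4 a group), horizontal marks are means and bars are SD, and each panel starts at 0. The first 8 panels are higher in VAT and the last 8 lower, in both genotypes.

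Other genes of axon guidance were read from a list of 78 (netrins and their receptors, FLRT and UNC5 proteins, adhesion molecules and signalling partners), of which 76 were tested. In KO SAT 8 rose and 2 fell (13.2%, against the 5.89% of all genes above), and in KO VAT 2 rose and 1 fell (3.95%, against 4.1%). By depot, 26 were higher and 26 lower in VAT in KO (68.4%, against 43.3%), and 23 higher and 17 lower in WT (52.6%, against 36.7%). Scaled by totals alone, these became 40 higher and 10 lower in KO and 42 higher and 7 lower in WT. The SAT count fell to 3 without KO SAT replicate 4, to 5 without KO SAT replicate 2 or 3 and to 6 without WT SAT replicate 3. The VAT count fell to 1 without WT VAT replicate 1 or 2 and rose to 8 without WT SAT replicate 3.

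Met, the receptor of hepatocyte growth factor, had 24.1 ± 4.7 CPM in KO SAT and 14.6 ± 1.8 CPM in WT SAT (SD, n = 4), a rise of 0.72 ± 0.13 (adjusted p = 0.00305). Neo1, a receptor for netrins and repulsive guidance molecules, rose by 0.48 ± 0.09 (adjusted p = 0.00398), to 248 ± 17 CPM in KO SAT against 178 ± 22.5 CPM in WT SAT. Chl1, a neural adhesion molecule, rose by 1.43 ± 0.27 (adjusted p = 0.00433), to 17.1 ± 6.72 CPM in KO SAT against 6.35 ± 1.11 CPM in WT SAT. Flrt2, a membrane ligand of UNC5 receptors, rose by 0.52 ± 0.12 (adjusted p = 0.0183), a call lost without KO SAT replicate 2 or 4 (0.0656 to 0.0705). In KO VAT, Lphn1 (now Adgrl1), a latrophilin that binds FLRT proteins, rose by 0.43 ± 0.08 (adjusted p = 0.00332). Hfe2 (now Hjv), a repulsive guidance molecule relative that acts in iron balance, rose by 1.18 ± 0.31 (adjusted p = 0.0388). Its call was lost without KO SAT replicate 3, KO VAT replicate 1, 2 or 3 or any WT VAT replicate (0.0514 to 0.113). Flrt3, a further UNC5 ligand, fell by 0.40 ± 0.09 (adjusted p = 0.0221), a call lost without KO VAT replicate 3 or 4 or WT VAT replicate 1 or 2 (0.0568 to 0.0804).

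Kdr, the VEGF receptor that shares the co-receptor Nrp1, is also 1 of the 11 endothelial markers. It was the only listed gene called in the interaction (-1.77 ± 0.33, adjusted p = 0.0351), 1 of 76 against 0.267% of all genes. It had 17 ± 7.21 CPM in KO SAT and 8.81 ± 1.36 CPM in WT SAT (0.95 ± 0.24, adjusted p = 0.0248), and 20.8 ± 5.07 CPM in KO VAT and 36.5 ± 5.36 CPM in WT VAT (-0.82 ± 0.23, adjusted p = 0.0533). The interaction call was lost in 10 of the 16 fits that left out 1 library (adjusted p from 0.05 to 0.0833): those without KO SAT replicate 3 or 4, WT SAT replicate 1 or 4, KO VAT replicate 1, 2 or 4, or WT VAT replicate 1, 3 or 4. The count of 1 was 2 without KO VAT replicate 3. By depot, Ptk7, a catalytically inactive receptor kinase, was higher in VAT by 2.92 ± 0.15 in KO and 3.03 ± 0.16 in WT. Dpysl5, a collapsin response mediator, was higher by 2.92 ± 0.27 in KO and 2.90 ± 0.27 in WT. Draxin, a secreted netrin antagonist, was lower in VAT at -1.98 ± 0.21 in KO and -2.35 ± 0.21 in WT, and the kinase Fyn was lower in VAT at -1.29 ± 0.11 in KO and -1.04 ± 0.11 in WT. The adaptor Grb10 (-1.12 ± 0.10 in KO and -0.75 ± 0.10 in WT) and Flrt3 (-1.04 ± 0.09 in KO and -0.51 ± 0.09 in WT) were also lower.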

How the data were processed

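The authors deposited raw counts per gene symbol for 16 libraries, 4 in each of 4 groups. Per the labels' protocols, total RNA was made into libraries with a kit that does not mark strand and sequenced as single reads. The submitters' processing notes name STAR, FastQC, featureCounts, DESeq and mm10, with no versions. A second table, of values scaled by the authors, was not used. Genes were filtered with filterByExpr, scaled by TMM and fitted over all 4 groups with edgeR 4.0.16 in R 4.3.3 (quasi-likelihood test, 12 residual degrees of freedom). Adjusted p-values are Benjamini-Hochberg over 16842 genes. The fit was also run on simulated counts with changes made in KO SAT alone and the same spread for every gene. That run had no depot differences, so it cannot speak for the depot or interaction calls. Errors are SE for fold changes and SD for levels, and they and the counting of reads set the precision.

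Alternatives were other scalings, no filter, DESeq2 1.42.0, limma-voom (limma 3.58.1), only the groups compared, a replicate block and leaving out each library. Positions and exon lengths came from GENCODE vM21 on GRCm38. Guidance genes were shown by library when called between genotypes (up to 8 per depot), when among the 8 largest depot increases or decreases in WT at a mean of at least 1 CPM, among the 3 smallest interaction p-values, or among the 6 highest in RPKM. Counterparts, and up to 4 other pathway genes per contrast, were also named. The members and lists were chosen with earlier results of these data known.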

Additional observations from a re-analysis of the deposited data

Results flagged for a closer look

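In 112 groups of 4 libraries (28 named guidance genes in 4 groups), 2 libraries stood apart from the other 3 of their group by Dixon's criterion, which chance meets in about 5% of groups. Sema3g had 6.1 CPM in WT SAT replicate 2, against 3.65 to 3.87 CPM in the other WT SAT libraries, and still lay below all KO SAT libraries. Without that library Sema3g was called in the interaction. Sema4c had 61.3 CPM in WT SAT replicate 3, the shallowest library, against 78.2 to 81.4 CPM in the other WT SAT libraries.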

How the results depend on the processing

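Scaling by library totals alone turned the sign of 7 of 53 depot differences in KO and 7 of 53 in WT, none of them called in the first place; Sema4c in both genotypes and Sema3d in WT were among them. It ended 5 calls and added 7 in KO, and ended 6 and added 6 in WT. Of the values of genes named by rule, 1392 kept their side of the threshold, 100 lost a call and 19 gained one. The guidance genes called between genotypes in SAT numbered 7, and 4 when only the SAT libraries were fitted. In VAT they numbered 4, with 2 when no filter was used, 7 by DESeq2 and 7 by limma-voom. In the interaction they numbered 0, with 4 by DESeq2, and the other pathway genes numbered 1, with 5 by DESeq2 and 0 with the replicate block. The other pathway genes in VAT numbered 3, with 7 by DESeq2. Leaving out 1 library gave 3 to 7 guidance genes in SAT, 1 to 8 in VAT, 36 to 39 by depot in KO, 31 to 36 by depot in WT and 0 to 2 in the interaction. For the other pathway genes it gave 3 to 11 in SAT, 1 to 8 in VAT, 45 to 56 by depot in KO, 37 to 42 by depot in WT and 0 to 2 in the interaction. The cause of these moves was not tested.

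Deviations of libraries with the same replicate number had a median r of 0.00686 over 24 pairs (from -0.16 to 0.176, 4 of them above 0.1). Between VAT and SAT, 0 of 4 pairs were above 0.1 in KO (-0.0399 to 0.0536) and 3 of 4 in WT (-0.0414 to 0.144). The labels do not say that the numbers mark a shared animal, and as not every pair was above 0.1 they were not used as pairs, although shared animals in WT were not tested further. A replicate block joined equal numbers across all 4 groups, KO with WT, so it could not show the effect of pairs within a genotype. With this block, 6 guidance genes were called in SAT (Nrp1 lost, adjusted p = 0.072) and 4 in VAT (Efna4 lost, adjusted p = 0.0508, and Slit3 gained). By depot, 36 were called in KO and 35 in WT. Genes under about 1 CPM, such as Sema4f, Robo2 in SAT and Epha8, rest on few reads, and smaller changes in them were not detectable at this depth.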
